A study of Ovis aries with 16 samples.

Results

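Broad methylated domains were the widest stretches of the fetal muscle genome in which methylated DNA was recovered. They were selected on measured values, namely the merged width of the peaks and the number of fetuses with a peak. The peaks of all 16 fetuses were pooled and joined wherever they overlapped by 1 bp or more. The joined regions on chromosomes 1 to 26 were called consensus regions where at least 2 fetuses had a peak. A domain was a consensus region of at least 5000 bp. This gave 5492 domains among 493190 autosomal consensus regions, or 1.114% of them. Together the domains held 43635465 bp, which was 9.45% of the bases in consensus regions and 1.78% of the autosomal sequence up to the last peak of each chromosome. No region of that width came from 1 fetus only.

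In vertebrate DNA the methyl group sits mostly on the cytosine of CpG dinucleotides, and most of the genome outside CpG islands is methylated. A methyl-binding domain protein holds fragments best where many methylated CpG sites lie close together, so that a wide enriched stretch marks a long run of DNA that is both rich in CpG and methylated. Sequence near the ends of mammalian chromosomes tends to be rich in CpG and genes. No base-level methylation was measured by this assay, and a stretch with no peak may be unmethylated, poor in CpG, covered by too few reads or missing from the DNA of that animal.

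DNA came from longissimus dorsi (LD) muscle of 16 sheep fetuses carried by Polypay ewes. The ewes were fed hay (alfalfa haylage; 8 fetuses, Hay) or corn with a supplement and a little haylage (8 fetuses, Corn) from mid-gestation to late gestation, with equal metabolizable energy. The tissue was whole muscle. The study's pool descriptions place the 8 hay fetuses with 4 dams and the 8 corn fetuses with 5, as 4 and 3 pairs of twins and otherwise single fetuses, but tie neither dam nor sex to a sample number. The diet was fed to the dam, and the tests here treat fetuses as independent, so their p-values are too small where twins resemble each other. Each fetus keeps its sample number below, as in hay fetus 5. The lists held 251969 to 506610 autosomal peaks per fetus, covering 152390315 to 277118109 bp. Read counts were not analysed here, so the depth behind a peak is unknown.

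Most domains were only slightly wider than the threshold, with a thin tail of very wide ones. The median width was 6723 bp, with the 25th percentile at 5667 bp and the 75th at 8796 bp. In 1867 domains the width exceeded the threshold by less than 1000 bp, whereas 950 domains reached 10000 bp and 13 reached 30000 bp. The threshold did not fall in a gap of the distribution, since 273 consensus regions fell short of it by 100 bp or less and 246 exceeded it by less than 100 bp. Just inside it lay chr2:102439050-102444049, chr8:90579439-90584438 and chr13:77646199-77651198, each 5000 bp wide, of which a fetus covered 62.7%, 67.8% and 71.0% on average. Just outside lay chr3:218394873-218399871, chr16:69465522-69470520 and chr22:49289980-49294978, each 1 bp narrower and covered to 63.2%, 84.6% and 63.5% on average. Coordinates are those of the peak lists (Oar_v3.1).

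The 2 widest domains were of nearly equal size and lay at opposite ends of different chromosomes. The widest, chr2:246106954-246154340, measured 47387 bp and ended 2.84 Mb before the last peak of chromosome 2. Hay fetuses covered a lowest, median and highest share of 78.6%, 88.7% and 95.4% of it, and corn fetuses 79.5%, 91.3% and 95.6%. The ranges of the diets overlapped almost entirely. It was called as 12.1 separate peaks per fetus on average, but in hay fetus 5 a single peak ran over 33981 bp of it. The next, chr3:1416261-1463499, measured 47239 bp near the start of chromosome 3 and was covered to 81.7%, 90.8% and 95.3% in hay and 79.2%, 93.6% and 96.9% in corn.

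Other domains of more than 30 kb repeated these positions. On chromosome 20, chr20:50632146-50674369 (42224 bp) lay 0.5 Mb from the last peak. On chromosome 24, chr24:37170374-37210872 (40499 bp) and chr24:41570430-41610130 (39701 bp) lay within 5 Mb of it. Chromosome 10 had chr10:85054294-85088121 (33828 bp) and chr10:84217700-84248584 (30885 bp) within 5 Mb of its last peak, and chr3:3415535-3447251 (31717 bp) lay near the start of chromosome 3. The other end of chromosome 20 held chr20:12840-46114 (33275 bp), and chromosome 9 began with chr9:1642-32698 (31057 bp), so that both started within the opening 13 kb of their sequence. The chromosome 9 domain differed from the rest of the 10 widest in being nearly unbroken, with 2.94 peaks per fetus, a mean coverage of 97.2% and 89.5% of its bases covered in all 16 fetuses.

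Domains were concentrated toward the high-coordinate ends of the chromosomes. Of the 5492 domains, 1663 (30.3%) lay within 2 Mb of the last peak of their chromosome, as did 2.94% of all consensus regions. The share rose with width, from 1.42% of consensus regions under 1000 bp to 6.16% of mid-width regions (at least 1000 bp and under 5000 bp), 17.2% of those of at least 3000 bp among these and 39.7% of the domains that reached 10000 bp. The last 5 Mb held 51.0% of the domains and 8.02% of all consensus regions. These are descriptions of position, which the selection did not use, and no test was made because neighbouring regions are not independent.

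**Figure D1:**
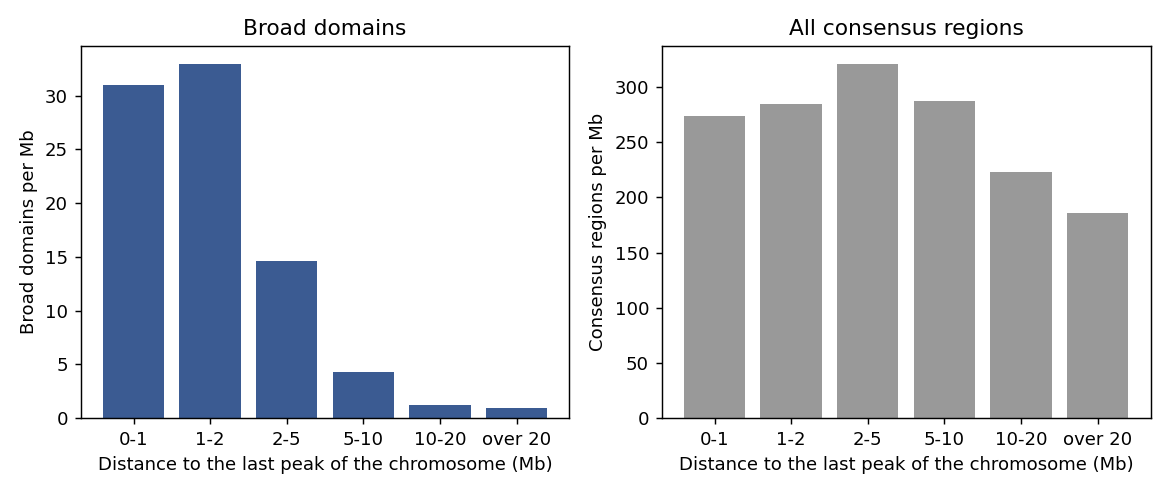
Number of broad domains (left) and of all autosomal consensus regions (right) per Mb of sequence, in bins of distance to the last peak of the chromosome, in Mb, summed over 26 autosomes. Domains go from 31.0 per Mb in the last Mb to 0.937 per Mb beyond 20 Mb, while consensus regions go from 274 to 186 per Mb.

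Domain density was 31.0 per Mb in the last Mb, 33.0 per Mb from 1 to 2 Mb, 14.6 per Mb from 2 to 5 Mb, 4.26 per Mb from 5 to 10 Mb and 0.937 per Mb beyond 20 Mb. Over the same bins all consensus regions went from 274 to 186 per Mb, with 321 per Mb from 2 to 5 Mb. The bases in domains made up 26.7% of the last Mb and 28.0% of the next, against 0.724% of the sequence beyond 20 Mb. Domains near the end were also somewhat more fully covered. A fetus covered 82.2% of a domain in the last Mb on average and 73.2% of one at 5 to 10 Mb, and the share of bases covered in all 16 fetuses was 40.0% and 25.4% at these distances.

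The low-coordinate ends differed between kinds of chromosome. Sheep autosomes 1 to 3 have arms on both sides of the centromere, so that both of their ends are telomeric, and the others begin at or near the centromere. On chromosomes 1 to 3 the first 2 Mb held 280 of 1477 domains (18.96%) and 0.955% of consensus regions. On chromosomes 4 to 26 the first 2 Mb held 170 of 4015 domains (4.23%) and 2.47% of consensus regions. Chromosome 1 kept few domains at its high-coordinate end (25 of 422, 5.92%), and chromosome 26 had 1 of 91 in its last 2 Mb (1.099%). At the other extreme, chromosome 10 had 61.4% and chromosome 22 had 55.2% of their domains there.

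Domain density differed widely between chromosomes. Chromosome 24 had the highest, with 219 domains, 5.21 per Mb and 4.27% of its length in domains, followed by chromosomes 19 and 21 with 3.90 per Mb each. Chromosome 25 had the lowest, with 48 domains and 1.06 per Mb, followed by chromosome 13 with 1.37 per Mb. All consensus regions had 214 per Mb on chromosome 24 and 217 per Mb on chromosome 25. These chromosomes therefore had nearly the same density of methylated regions and differed in how many of them were broad. The largest number of domains, 635, lay on chromosome 3.

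**Figure D2:**
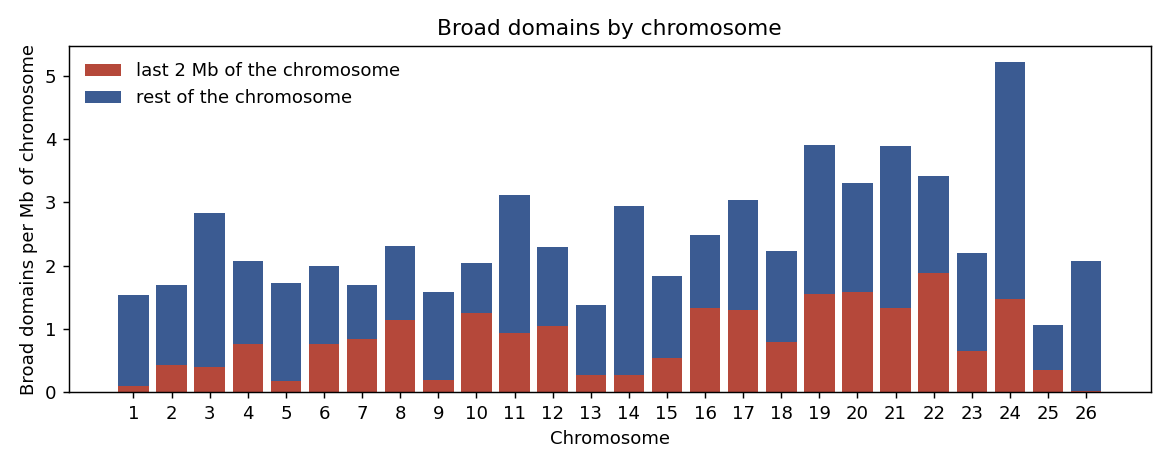
Broad domains per Mb on each of the 26 autosomes, with the part that lies within 2 Mb of the last peak of the chromosome drawn separately. Chromosome 24 has 5.21 domains per Mb and chromosome 25 has 1.06, and chromosome 26 has 1 domain in its last 2 Mb.

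Domains came in chains. The median distance from a domain to the next on the chromosome was 16056 bp, and 689 of 5466 such distances were within 1000 bp. Joining domains under 10 kb apart placed 3200 domains (58.3%) in 1047 chains, of which 137 had at least 5 domains and 16 at least 10. The longest, chr3:221141419-221417475, had 20 domains in 276057 bp, 75.5% of which was inside a domain, and ended 2.86 Mb before the last peak. Next came chr10:85536328-85769463, with 15 domains and 80.9% of its length inside them, 676241 bp from the last peak. A chain at the low-coordinate end of chromosome 2, chr2:1450485-1610340, had 11 domains and 82.2% of its length inside them.

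Nearly every domain was found in every fetus, but no fetus covered its domains fully. A peak was present in all 16 fetuses in 5487 domains (99.9%), compared with 55.2% of mid-width regions. Among these, 97.6% of those of at least 3000 bp had one in all 16. The number of fetuses was part of the selection only down to 2, but width was part of it and this share rose with width. Averaged over fetuses, the share of a domain under peaks had a median of 78.6% and ranged from 34.7% to 99.7%. Coverage varied less between fetuses in domains than in narrower regions. The SD of the percent covered across the 16 fetuses had a median of 10.1 percentage points over the domains and 21.1 over mid-width regions. Width entered the selection, and coverage is bounded at 100%, so the comparison is a description.

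The bases of the domains ranged from a core shared by all 16 fetuses to a thin individual fringe, with most bases between them. All 16 fetuses had a peak over 34.5% of domain bases and at least 8 fetuses over 84.6%, whereas 2.09% of the bases were covered in a single fetus. A core covered in all 16 fetuses was present in 5447 domains. It was broken up, since the median domain had 30.5% of its width in the core, in 6 stretches, the widest of them 864.5 bp long. Only 21 domains held a core stretch of at least 5000 bp, and the longest measured 18629 bp.

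**Figure D3:**
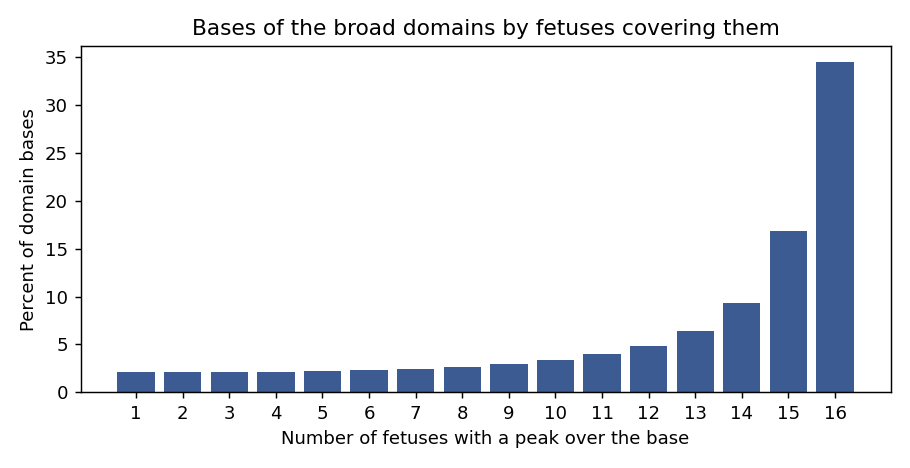
Percent of the 43635465 bases in broad domains by the number of fetuses with a peak over the base. Each count from 1 to 8 fetuses holds 2.09% to 2.63% of the bases, and 16 fetuses hold 34.5%.

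Only 5 domains lacked a peak in some fetus, and 1 of them split the fetuses sharply. At chr17:70274741-70289881, a domain of 15141 bp located 1.99 Mb from the last peak of chromosome 17, 9 fetuses had peaks and 7 had none. The 9 were hay fetuses 5, 10, 12 and 15 and corn fetuses 1, 2, 6, 9 and 14. They covered 51.5% to 99.8% of its width, and their highest peak scores (−log10 of the peak p-value) were 32.5 to 100, the last standing for a p-value of 0 in hay fetus 15. In that fetus a single peak covered 15118 bp. The other 7 fetuses had no peak anywhere in the 15141 bp, although each had a peak in at least 5489 of the 5492 domains. Whether those 7 carried this sequence was not tested, since peak lists do not show it. With 4 hay and 5 corn fetuses on one side, the split crossed both diets.

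The other 4 such domains were less extreme. At chr24:42027321-42032472, which ended at the last peak of chromosome 24, 12 fetuses had a peak and coverage ran from 2.78% to 94.8% among them. The domain chr19:9013-14374 was covered to 66.1% or more in 15 fetuses and had no peak in corn fetus 2. At chr4:111406224-111411486 and chr15:72646678-72651879 the missing fetus was hay fetus 11, the fetus with the fewest autosomal peaks (251969), and the highest score among the others was 3.06 and 3.01.

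Most domains were assembled from several peaks rather than found as a block. In a median domain a fetus had 3.81 separate peaks, with a range over domains of 1 to 22.2. A single peak of at least 5000 bp occurred in at least 1 fetus in 3227 domains (58.8%). At least 8 fetuses had one in 1044 domains, and every fetus in 46. In 2265 domains no fetus had a peak that wide, so their width came only from overlap between peaks of different fetuses. The gaps between peaks of a fetus inside a domain were short. Of 264824 such gaps, 52.3% were under 250 bp and 5.04% over 1000 bp, with a median of 239 bp and a minimum of 100 bp. Merging peaks up to 250 bp apart would have given 8210 domains in place of 5492.

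The least broken domains were moderate in width. The domain chr11:42705515-42718116 (12602 bp) was a single peak in all 16 fetuses, covered to 96.1% or more in each, and 95.7% of it was covered in all of them. It lay in the interior, 19.5 Mb from the last peak of chromosome 11. At chr16:86649-94716 (8068 bp), near the start of chromosome 16, each fetus again had a single peak, and coverage was 99.2% to 99.99%. Another, chr17:71565928-71572346 (6419 bp), had 1.06 peaks per fetus and lay 0.710 Mb from the last peak. Those with the most separate peaks were among the widest, and these counts were not scaled for width. A fetus had 22.2 peaks on average in chr20:50632146-50674369, 20.8 in chr24:37170374-37210872 and 15.1 in chr20:49171449-49199485 (28037 bp), with coverage of 80.9%, 81.1% and 80.5%.

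A few domains held many of the strongest calls. Peaks inside domains were 5.69% of all autosomal peaks but 311 of the 1243 (25.02%) whose deposited p-value was 0. By bases the domains took 16.1% of those under a fetus's peaks on average, since peaks inside domains were wider. Width entered the selection, so the comparison is a description. These 311 peaks fell in only 31 of the 5492 domains, and in 12 domains every fetus had one. Of the 31, 12 lay within 100 kb of the first base or last peak of a chromosome, as did 95 of all 5492 domains.

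How completely a fetus filled the domains varied widely. The percent of a domain covered, averaged over domains, ranged from 62.8% in hay fetus 12 to 87.5% in hay fetus 5. Separate peaks per domain ran the other way, from 5.78 in hay fetus 12 to 2.81 in hay fetus 5. Hay fetus 5 had 1127 domains in a single peak (20.5%) and 715 with 5 or more peaks, and hay fetus 12 had 93 (1.69%) and 3495. The 2 extremes were therefore fetuses of the same diet.

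Both measures moved with the peaks outside the domains. Across the 16 fetuses, the bases under peaks outside domains were correlated with the percent of a domain covered (Pearson's r = 0.786, permutation p = 0.00031, adjusted p = 0.00093; Spearman's rho = 0.788, permutation p = 0.0005, adjusted p = 0.00075). The coefficient was 0.753 without the 2 fetuses farthest from the median, 0.811 within hay and 0.689 within corn. The median width of peaks outside domains was correlated with separate peaks per domain (r = -0.711, permutation p = 0.00265, adjusted p = 0.003975; rho = -0.887, permutation p = 1e-05, the smallest possible, adjusted p = 3e-05), with r = -0.830 without the 2 farthest fetuses, -0.901 within hay and -0.671 within corn. For that width and the percent covered r was 0.539 (permutation p = 0.03117, which is also the adjusted p) and rho was 0.636 (permutation p = 0.00947, likewise), with r = 0.666 without the 2 farthest, 0.612 within hay and 0.533 within corn. P-values were adjusted over these 3 relations. The median width outside domains was 250 bp, its lowest value, in corn fetus 4 and in hay fetuses 3, 12 and 16. The authors gave the same length for fragments in peak calling. The parts of depth, enrichment and peak calling in the 3 relations were not tested.

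The hay and corn diets were compared to ask whether the maternal diet went with a difference in the domains, whose selection made no use of diet. Every fetus had a peak in nearly all of them, with 5489 to 5492 domains in hay and 5490 to 5492 in corn, and means of 5491.1 in both (exact permutation test over 12870 assignments, two-sided as are all such tests here, p = 1). The percent of a domain covered was lowest, median and highest at 62.8%, 74.1% and 87.5% in hay and at 70.1%, 80.2% and 84.4% in corn. The corn range lay entirely inside the hay range. Means were 75.1% ± 7.72 (SD, n = 8) and 79.4% ± 4.81 (SD, n = 8), a difference (hay minus corn) of -4.39 percentage points (exact permutation test, p = 0.193), with the hay fetus higher in 19 of 64 pairs. Without hay fetus 12 the difference was -2.64 (exact permutation test, p = 0.374), and without hay fetus 5 it was -6.17 (exact permutation test, p = 0.0517). After regression on the bases outside domains it was -2.17 (exact permutation test, p = 0.298), and after regression on the median width of peaks outside domains, an alternative chosen after the data were seen, it was -1.13 (exact permutation test, p = 0.696).

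In bases, hay fetuses covered 28207194, 33159169.5 and 38698557 bp of domain (lowest, median and highest) and corn fetuses 31216725, 35696940 and 37457186 bp. The difference of means was -1882790 bp (exact permutation test, p = 0.187). It depended on the extreme hay fetuses. Without hay fetus 12, which covered the least, it was -1129800 bp (exact permutation test, p = 0.362), and without hay fetus 5, which covered the most, it was -2628600 bp (exact permutation test, p = 0.0490). The other omissions of 1 fetus left p above 0.05. As a share of all autosomal bases under a fetus's peaks the domains took 16.4% ± 2.38 (SD, n = 8) in hay and 15.8% ± 1.42 (SD, n = 8) in corn, a difference of 0.533 percentage points in the opposite direction (exact permutation test, p = 0.598). Both differences were smaller than the SD within hay.

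Domains of hay fetuses were in more pieces on average, with overlapping ranges. Separate peaks per domain were 2.81, 4.22 and 5.78 (lowest, median and highest) in hay and 2.995, 3.50 and 5.71 in corn. The means, 4.32 ± 0.962 (SD, n = 8) and 3.71 ± 0.861 (SD, n = 8), differed by 0.608 (exact permutation test, p = 0.203). With 5.71 peaks per domain, corn fetus 4 stood apart from the next corn fetus at 3.82. Without it the difference was 0.894 (exact permutation test, p = 0.0373), without hay fetus 5 it was 0.824 (exact permutation test, p = 0.0800) and without hay fetus 12 it was 0.399 (exact permutation test, p = 0.377). Only the omission of corn fetus 4, of the 16 made, brought p under 0.05.

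A similar picture held for domains dominated by a single peak, counted where 1 peak covered at least 50% of the width. They numbered 535, 1554.5 and 3534 (lowest, median and highest) in hay and 926, 2421.5 and 3119 in corn. The difference of means was -598.5 domains (exact permutation test, p = 0.165), and it was -855 without hay fetus 5 (exact permutation test, p = 0.0295) and -427 without hay fetus 12 (exact permutation test, p = 0.301). The other 14 omissions left p above 0.05. Over peaks outside the domains, the median width was 273 ± 28.4 bp (SD, n = 8) in hay and 327 ± 70.5 bp (SD, n = 8) in corn (exact permutation test, p = 0.0651). After regression on that width, the difference in peaks per domain was -0.00111 (exact permutation test, p = 0.997) and that in domains with a single wide peak was -77.6 (exact permutation test, p = 0.813).

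**Figure D4:**
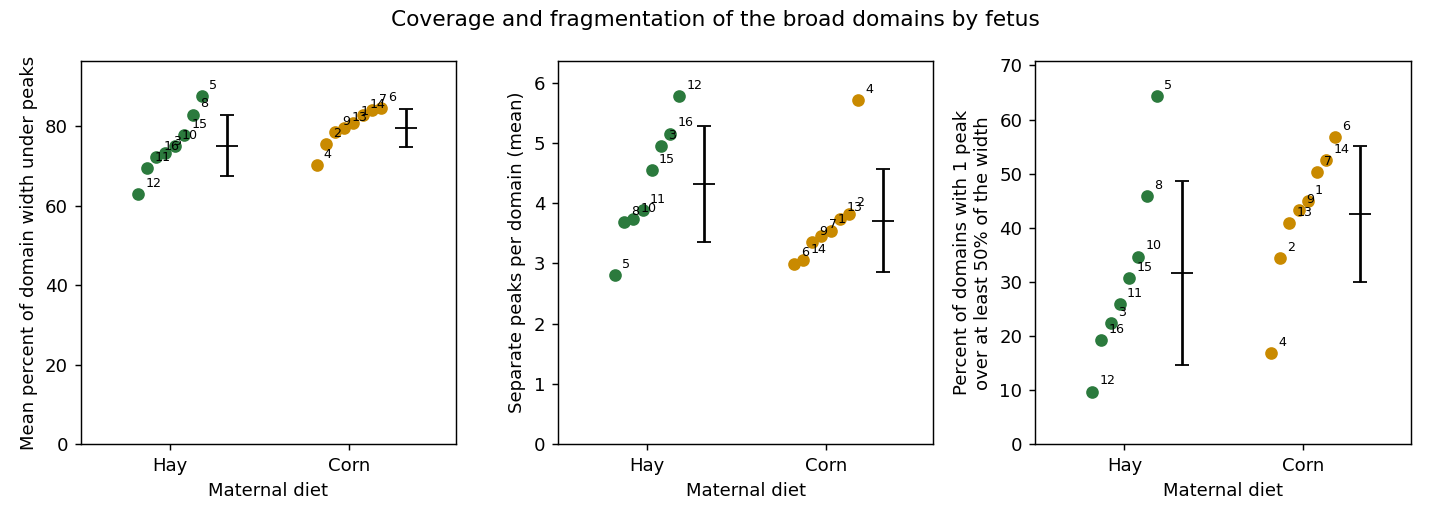
Mean percent of domain width under peaks, separate peaks per domain and percent of domains with 1 peak over at least 50% of the width, for each fetus (points, labelled with the sample number) by maternal diet, with the mean and SD of 8 fetuses beside them. Hay fetuses 5 and 12 are the extremes of all 3 measures, and corn fetus 4 has 5.71 peaks per domain against at most 3.82 in the other corn fetuses.

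The lower mean coverage in hay was not shown to be particular to the domains. In mid-width regions the percent covered was 51.5% ± 9.81 (SD, n = 8) in hay and 55.6% ± 6.17 (SD, n = 8) in corn. Domains exceeded these regions by 23.6 percentage points in hay and 23.8 in corn, a difference of -0.209 (exact permutation test, p = 0.915). Nor was a dependence of the diet difference on position detectable. Domains in the last 2 Mb were covered to 78.8% ± 7.29 (SD, n = 8) in hay and 83.2% ± 5.25 (SD, n = 8) in corn, and the others to 73.4% ± 8.04 (SD, n = 8) and 77.8% ± 4.77 (SD, n = 8). The diet differences at the 2 positions, -4.34 and -4.40 percentage points, differed by 0.0604 (exact permutation test, p = 0.960).

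Domain by domain, none passed the test of coverage across all regions. The percent covered was tested with limma across all 493190 autosomal consensus regions, at a threshold of 0.1 after Benjamini-Hochberg adjustment. In either direction 0 domains passed, as did 0.0% of all regions, and the smallest adjusted p of a domain in the limma fit was 0.656. At an unadjusted limma p under 0.05, 3 domains were higher in hay (0.0546%, against 0.82% of all regions) and 114 were higher in corn (2.08%, against 4.35%). These counts turned on the scale, on a covariate and on single fetuses. With log2 of the bases covered (plus 100) in place of the percent, 618 domains were higher in corn (11.3%, against 3.45% of all regions) and 9 higher in hay (0.164%, against 0.87%), with 0 past the adjusted threshold. A covariate added after the data were seen, the median width of peaks outside domains, reversed the order of these counts among the domains. It left 10 domains higher in hay (0.182%, against 0.839%) and 5 in corn (0.091%, against 3.39%). With this covariate the median difference (hay minus corn) over the domains was still negative, at -1.05 percentage points. Without corn fetus 4, 419 domains were higher in corn (7.63%, against 6.38%), and without hay fetus 5, 343 were (6.25%, against 5.81%). Complete separation of the diets was found in 0 domains, both for hay above corn (0.000203% of all regions) and for hay below corn (0.0126%).

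The shift between diets was small and spread over most domains. Coverage was lower in hay in 4833 of 5492 domains (88.0%), against 57.1% of all consensus regions. These shares are not on an equal footing, since 362394 of the consensus regions were under 1000 bp. Coverage also varied less between fetuses in domains, with a median SD of 10.1 percentage points against 21.1 in mid-width regions. In mid-width regions the mean was likewise lower in hay, at 51.5% against 55.6% in corn. The median difference (hay minus corn) was -4.23 percentage points over the domains, with 90% of them between -11.4 and 2.30, and -2.17 over all regions. Domains are covered by the same 16 libraries and are not independent, so the share of 88.0% is the shift of the mean seen domain by domain.

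**Figure D5:**
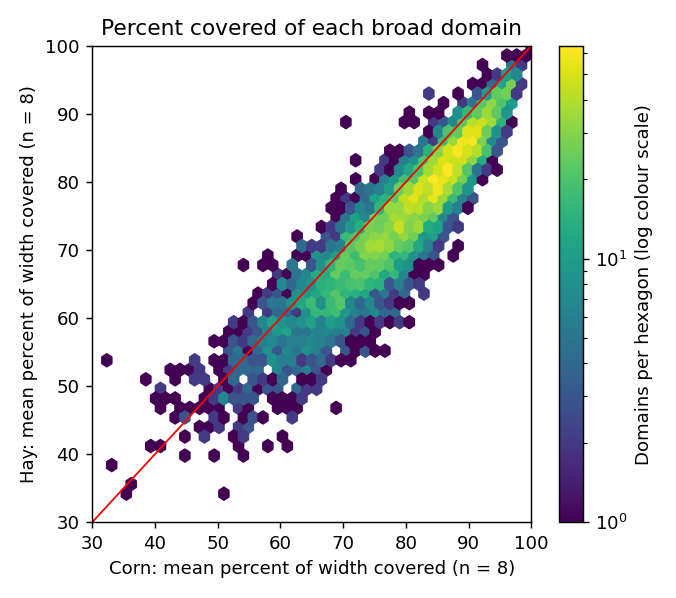
Mean percent of the width under peaks in 8 hay fetuses against 8 corn fetuses for each of the 5492 broad domains, as counts per hexagon on a log colour scale, with the line of equality. Most domains lie below the line, 88.0% with a lower mean in hay.

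The 5 domains with the smallest p in the coverage fit are given as candidates, none past the threshold. They were ranked by p and not by size. At chr24:42027321-42032472 the difference was larger than in any of them, at 21.1 ± 15.6 percentage points (SE; limma, adjusted p = 0.834), higher in hay. In 4 of the 5 candidates hay was lower. At chr2:1148217-1154765 the lowest, median and highest coverage was 29.2%, 72.5% and 89.9% in hay and 79.9%, 86.1% and 98.6% in corn, a difference of -18.7 ± 6.28 percentage points (SE; limma, adjusted p = 0.656). Hay fetus 12 alone lay far below the others. At chr3:105375470-105380490 coverage was 51.4%, 59.6% and 92.1% in hay and 58.8%, 88.1% and 93.6% in corn, a difference of -20.02 ± 7.55 (SE; limma, adjusted p = 0.796). Here hay fetus 5 was the high exception, since the next hay fetus was at 68.4%.

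Differences at chr4:118090903-118097734 (-17.3) and chr2:247911048-247918369 (-13.0) were of the same sign. The exception in direction was chr20:50513683-50525376 (11694 bp), 0.649 Mb from the last peak of chromosome 20. Its coverage was 75.04%, 89.7% and 95.5% in hay and 28.9%, 69.5% and 95.8% in corn, a difference of 17.8 ± 6.24 (SE; limma, adjusted p = 0.709). Corn fetus 4 held the lowest value, and without it the difference was 11.9 (limma, adjusted p = 0.651, with 0.463 to 0.934 over the fits that each left out 1 fetus).

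Peak scores gave a single call among the domains. For each region the highest score of a fetus was scaled between fetuses, taken as log2(score + 1) and tested with limma over the same regions. One domain of 5492 was higher in hay (0.0182%, against 0.000406% of all regions) and 0 were higher in corn (0.000406% of all regions). At an unadjusted limma p under 0.05, 40 domains were higher in hay (0.728%, against 1.45%) and 84 in corn (1.53%, against 1.76%). The median difference over the domains was -0.04 on the log2 scale, and 0.02 over all regions. The median difference over the domains kept its sign without scaling. The direction of the calls past the adjusted threshold depended on the scaling. Without it, 5 domains were higher in hay (0.091%, against 0.727%) and 1169 in corn (21.3%, against 5.04%) at that p, the median differences were -0.21 and -0.05, and the 4 domains past the adjusted threshold were all higher in corn. With the median width of peaks outside domains as covariate, added after the data were seen, 99 were higher in hay (1.80%, against 0.964%) and 18 in corn (0.328%, against 3.34%).

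The called domain, chr3:223385700-223395455 (9756 bp), lay 0.886 Mb from the last peak of chromosome 3. Its highest score before scaling was 2.49, 6.15 and 15.9 (lowest, median and highest) in hay and 1.90, 3.91 and 5.10 in corn, so the diets overlapped and hay fetus 5 was highest. On the scaled log2 scale the means were 2.90 ± 0.65 (SD, n = 8) and 2.14 ± 0.22 (SD, n = 8), a difference of 0.76 ± 0.13 (SE; limma, adjusted p = 0.0358). Without hay fetus 5 it was 0.64 (limma, adjusted p = 0.217) and without hay fetus 10 it was 0.71 (limma, adjusted p = 0.1001), past the threshold in neither. Over the alternatives followed for this domain the adjusted p from limma ranged from 6.79e-05 to 0.903. These were the fits without 1 fetus, with a covariate, with eBayes without trend, without scaling, or on regions where at least 4 fetuses had a peak. Coverage of this domain went the other way, with means of 76.7% in hay and 83.9% in corn (limma, adjusted p = 0.854).

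Gene annotation was at hand only for 28 autosomal genes that the study listed beside regions differing between the diets, a list chosen on these same fetuses. Of these, 5 overlapped a domain and 23 did not, among them LPAR3, PLCB4, PLIN4, PLIN5, ADAMTS12 and NBEA. TBC1D5, a Rab GTPase-activating protein that works with the retromer in endosomal sorting, overlapped 6 domains between 272176138 and 272334031 on chromosome 1, 5 of them wholly inside the gene. Their mean coverage ranged from 66.7% at chr1:272184889-272191774 to 89.7% at chr1:272229453-272234654. Differences between the diets at these 6 ran from -10.9 to 0.175 percentage points, with limma adjusted p of 0.833 or higher.

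The lincRNA ENSOARG00000025638 held 3 domains on chromosome 1. The pair at chr1:261872001-261877213 and chr1:261877862-261883582 also overlapped ENSOARG00000011345, annotated as pyridoxal kinase, which makes the active form of vitamin B6. The former was covered to 87.8% on average in 1.38 peaks per fetus and the latter to 75.9% in 3.31. MEGF11, a transmembrane protein with repeated EGF-like domains, held chr7:12567301-12572562, covered to only 46.6%, with 18.5%, 34.0% and 70.0% (lowest, median and highest) in hay and 37.3%, 53.4% and 80.8% in corn. ENSOARG00000014709 on chromosome 17 overlapped chr17:25470393-25475866, covered to 80.4%. None of these passed the threshold, with limma adjusted p of 0.907 or higher at the 5 domains.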

How the data were processed

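The authors sheared DNA, enriched methylated fragments with a methyl-binding domain kit and sequenced them in paired ends. Trimmomatic 0.33 was used for trimming, BWA 0.7.15 for alignment to Oar_v3.1, Picard 1.107 for removing duplicates and ChIPseeqer for calling peaks in each fetus. Each peak was deposited with a position and a number read here as its p-value (0 to 0.135); the score was its −log10, with 0 set to 1e-100. Members and lists were chosen with earlier results of these data known. Chromosome X was left out.

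Diet was taken from the labels. Values per fetus were compared with exact permutation tests. The regional fits used limma 3.58.1 (R 4.3.3; lmFit and eBayes, trend on), with scores scaled by median ratios over 86181 regions with a peak in every fetus, a pseudocount of 1 and a threshold of 0.1. Other steps used Python 3.11.15, numpy 2.4.6, pandas 2.3.3 and scipy 1.17.1, and were tested on simulated data. The text names the 10 widest domains, the 5 with the smallest coverage p, any past the threshold, the 3 most and 3 least broken, and the 3 on each side of 5000 bp; domains lacking a peak in some fetus and those in listed genes were named after their values were seen. Read counts were not used here. Absence of a peak may reflect low depth. No genome sequence or annotation of Oar_v3.1 was used here.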

Additional observations from a re-analysis of the deposited data

Results flagged for a closer look

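In groups of 8 fetuses, a value was picked out when its gap to the nearest other, divided by the range, exceeded 0.526 (Dixon's critical value). Chance picks out about 1 in 20 independent groups, and 12 of 60 groups screened were picked out here. These groups were not independent, since they held the same hay or corn fetuses over different measures and domains. Some of the domains had also been chosen for a small p between the diets. The count of 12 therefore cannot be set against that rate. In 10 of the 12 the fetus was corn fetus 4. It had 5.71 peaks per domain against 3.82 in the next corn fetus. It was the lowest corn fetus in percent covered at chr2:246106954-246154340 (79.5%), chr3:1416261-1463499 (79.2%), chr24:37170374-37210872 (63.8%), chr10:85054294-85088121 (79.4%), chr20:12840-46114 (63.1%), chr2:247911048-247918369 (84.2%), chr20:50513683-50525376 (28.9%), chr3:223385700-223395455 (55.2%) and chr16:86649-94716 (99.2%, where the next corn fetus was at 99.6%). In the hay group, fetus 12 was lowest at chr2:1148217-1154765 (29.2%, next 65.0%) and fetus 5 was highest at chr3:105375470-105380490 (92.1%, next 68.4%). Beside these values, corn fetus 4 had a median peak width outside the domains of 250 bp and a median score in the domains of 1.68, the lowest of the corn group in both. Hay fetuses 3, 12 and 16 had the same 250 bp, and no fetus had less. The part of that width and score in the domain values of corn fetus 4 was not tested.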

How the results depend on the processing

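No paired analysis was possible because the diets share no replicate number. The number of domains was 8910 at a minimum of 4000 bp, 1742 at 8000 bp, 5126 with an overlap of 100 bp and 5353 with only peaks above the 25th percentile of score. With all 16 fetuses kept, a pair of differences (hay minus corn) changed sign while near 0: peaks per domain after regression on outside peak width, an alternative added after seeing the data (-0.00111), and coverage against mid-width regions with peaks above the 25th percentile (0.0198). Coverage against mid-width regions was also positive without corn fetus 2 or 9 and without hay fetus 8, 12, 15 or 16. Domains called by score numbered 1 in the report, 3 with bases outside domains as covariate, 2 with outside peak width as covariate (also added), 2 with a pseudocount of 5, 4 without scaling (all higher in corn, where the 1 in the report was higher in hay), and 0 with eBayes without trend, only regions where at least 4 fetuses had a peak, peaks above the 25th percentile or presence of a peak. At the called domain on chromosome 3 the difference did not pass the threshold without scaling (0.58), nor with eBayes without trend or only regions where at least 4 fetuses had a peak (0.76 in both). Leaving out each fetus in turn gave -2628600 to -1129800 bp in bases covered, -6.17 to -2.64 percentage points in percent covered, -0.0612 to 0.922 in share of covered bases (negative without hay fetus 11), 0.399 to 0.894 peaks per domain, -0.161 to 0.304 domains with a peak, -855 to -427 domains with a single wide peak, -1.25 to 0.510 against the mid-width regions, 0 coverage calls among the domains in each fit (over all regions 35 without hay fetus 5, 14 without hay fetus 10, 10 without hay fetus 11, 4 without corn fetus 14 and 0 otherwise) and 0 to 6 score calls among the domains (6 without corn fetus 4, 0 without hay fetus 5 or 10). The counts of domains at an unadjusted p also changed, as given in the report. Beyond all these and the fits without hay fetus 5 or corn fetus 4 given in the report, alternatives kept direction and side of the threshold. Their sizes did change: regressions on peaks outside domains shrank the differences in percent covered and in single wide peaks, as given in the report. Depth is unknown, so missing peaks and low coverage cannot be separated.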

Other observations

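Applying the same width and sharing rule with chromosome X added gave 272 domains on X beside the 5492 autosomal ones, 5764 in all. They entered no comparison.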
